A study of Mus musculus with 12 samples.

Results

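The data described here are the mRNA profiles of the prefrontal cortex (PFC) of daughters whose dams had received bisphenol A (BPA) or corn oil during pregnancy. They comprised 6 of the 12 libraries of the series, chosen by sex: 3 Ctrl daughters (mice 715, 734 and 762, replicates 1 to 3) and 3 BPA daughters (mice 793, 797 and 3625, replicates 1 to 3). All were C57BL/6 mice (the dams C57BL/6Slac) aged 4 months, and each library came from 1 mouse. The dams of the BPA group were gavaged daily with 40 ug/kg bw/day, beginning on gestational day 0.5 and ending on day 13.5, and those of the Ctrl group with corn oil over the same days. The daughters themselves received nothing, and the study states that the animals profiled came from different litters. The 6 sons' libraries were used only where a response in daughters was compared with that in sons.

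BPA is a monomer of polycarbonate plastics and epoxy resins that binds estrogen receptors weakly and reaches the fetus through the placenta. The PFC is a layered cortical area that holds excitatory projection neurons, inhibitory interneurons and glia. Its projection neurons are born in midgestation and late gestation, whereas most of its myelin is laid down after birth. Since the cortex was profiled months after the exposure had ended, the comparison asks which transcripts still differed in the adult daughter.

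The deposited values were whole reads per gene, with totals between 17203786 and 17469357 per library. All libraries carried the transcripts of a female cortex: Xist, the RNA that coats the inactive X chromosome, lay between 450 and 735 CPM (reads of the gene scaled to 1000000 reads of the library), and none of the Y-linked Ddx3y, Eif2s3y, Kdm5d and Uty exceeded 0.174 CPM. The vesicular glutamate transporter gene Slc17a7 lay between 1452 and 2028 CPM, and the layer markers Cux2 and Tbr1 lay between 119.5 and 326 CPM. The dopamine and adenosine receptor genes of striatum, Drd1, Drd2 and Adora2a, were at most 3.66 CPM. Rgs9, a further striatal marker, ran from 6.70 to 13.1 CPM. Ttr of the choroid plexus was at most 0.458 CPM.

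The females differed among themselves along an axis that did not follow the groups. Over the 1000 most variable genes, the first principal component held 66.5% of the variance and set Ctrl replicate 3 and BPA replicate 1 apart from the other libraries, with Ctrl replicate 2 between. The genes that led this axis are known from the olfactory bulb, which borders the frontal cortex, and a list of 25 such genes was drawn up after this was seen. Eomes, a T-box factor of the bulb's projection neurons in the adult, stood at 0.0583, 6.87 and 21.6 CPM in the Ctrl libraries and at 30.8, 0.059 and 0.173 CPM in the BPA libraries. Th, the rate-limiting enzyme of dopamine synthesis, stood at 0.0583, 11.5 and 29.8 CPM and at 48.1, 0 and 0.346 CPM. The summed level of the 25 genes was 391, 593 and 1302 CPM in Ctrl replicates 1 to 3 and 1273, 376 and 361 CPM in BPA replicates 1 to 3, against 358 to 495 CPM in the 6 sons. High and low libraries occurred in both groups, and no gene of the list passed the test between the groups described next (0 of 22 tested). The median log2 fold change of the list was -0.19, but it ran from -1.68 to 0.85 as single mice were left out. Without Ctrl replicate 3 and BPA replicate 1 it was -0.48. More cells of a type and more RNA per cell cannot be told apart in such libraries. The counts over all genes are therefore also given with the mean log2 level of these genes as a covariate, and without Ctrl replicate 3 and BPA replicate 1. Single DEGs are given that way where their log2 fold change moved by over 1.5 times.

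**Figure D1:**
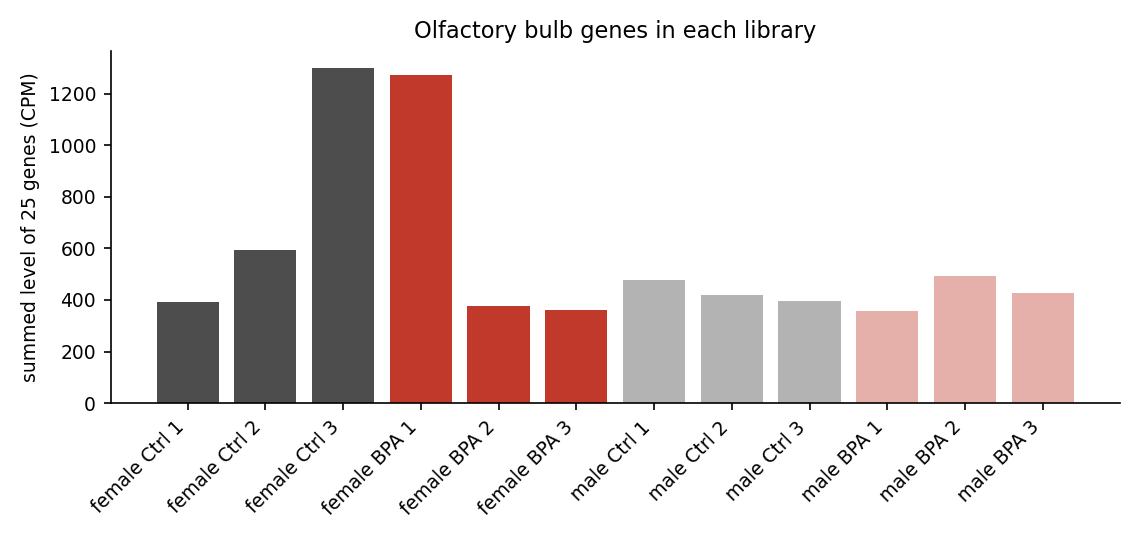
Summed level (CPM, y axis) of 25 olfactory bulb genes in each of the 12 libraries (x axis), 1 bar per mouse, with females in dark and males in light colours. Ctrl replicate 3 and BPA replicate 1 of the females stand at 1302 and 1273 CPM, Ctrl replicate 2 at 593 CPM, and the other 9 libraries at 495 CPM or less.

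To learn which genes differed between BPA and Ctrl daughters, 17022 genes with enough counts were tested with edgeR's quasi-likelihood test. The unadjusted p was under 0.05, the threshold that the study used, for 355 genes (2.09%), which are called differentially expressed genes (DEGs) below. Chance alone gives 851. Upregulated DEGs made up 189 (1.11% of the genes tested) and downregulated DEGs 166 (0.975%), a split that turned to 146 and 223 when libraries were scaled by their totals alone. No gene had an adjusted p under 0.05 with edgeR (0 genes, Benjamini-Hochberg, 0.9995 for each DEG) or with DESeq2, and DESeq2 gave 172 genes at the unadjusted threshold, of which 146 were also found by edgeR. The changes were small, with a median absolute log2 fold change of 0.38 among DEGs, and only 9 upregulated and 7 downregulated genes changed by 1 or more on this scale.

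Of all genes tested, 1272 (7.47%) had no overlap between the 3 Ctrl and the 3 BPA libraries, and 302 of these were DEGs. Without any difference between the groups, chance alone separates 3 from 3 mice at a rate of 0.1, which is above this share. An exact permutation test of 3 against 3 mice cannot give a two-sided p below 0.1 for a single gene, so single genes are given with their log2 fold change and standard error (SE). Leaving out each mouse in turn kept the direction of all 355 DEGs, and 47 stayed under the threshold in all 6 of these fits. The DEGs were chosen by their p in these same mice, which by itself favours a kept direction, so this is no independent support. With the bulb covariate, 734 genes (4.31%) passed, of which 324 were DEGs of the comparison without it. Without Ctrl replicate 3 and BPA replicate 1, 577 of 17025 genes (3.39%) passed, 171 of them DEGs in the comparison of all 6 libraries. Both of these counts also remained below the 851 that chance gives, and neither fit had a gene with an adjusted p under 0.05 (0 genes, smallest values 0.936 and 0.997).

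**Figure D2:**
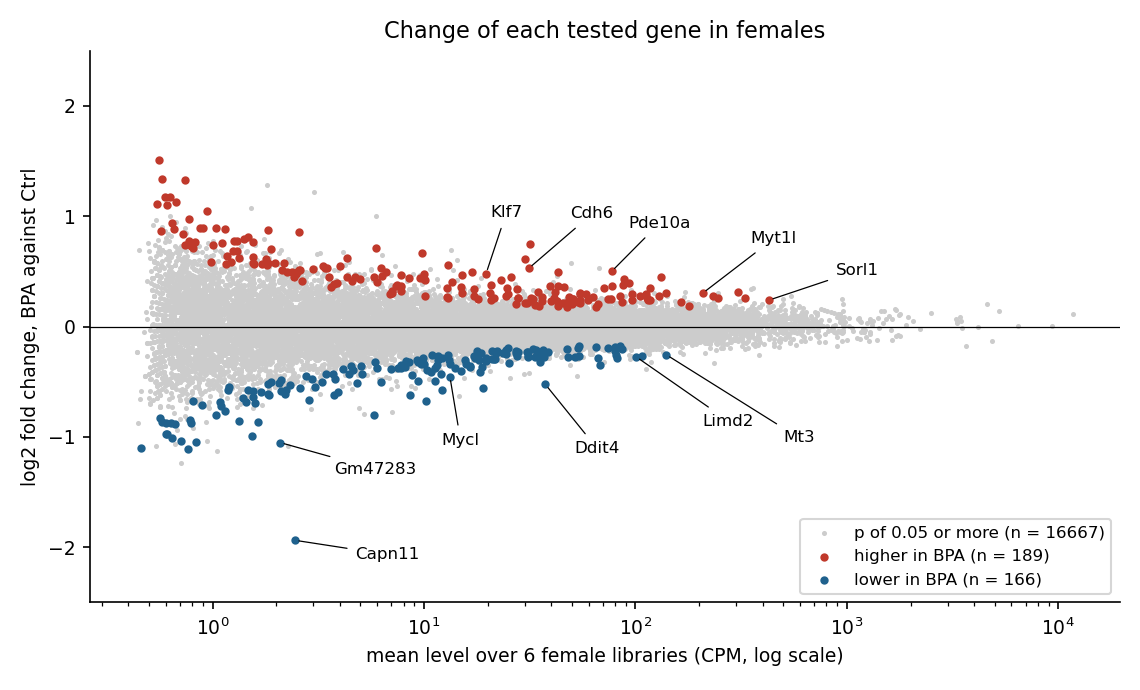
Log2 fold change of BPA against Ctrl females (y axis) against the mean level over the 6 libraries (CPM, log scale, x axis) for each of the 17022 genes tested. Upregulated DEGs (red, 189) and downregulated DEGs (blue, 166) lie at the edges of the cloud, up to the level of Sorl1, and few reach a change of 1.

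The upregulated genes were led by Pde10a, Klf7, Shc3 and Efr3a. Pde10a (ENSMUSG00000023868, chr17:8525372-8986648 of GRCm38), which encodes a phosphodiesterase that degrades cAMP and cGMP, stood at 64.9, 68.5 and 58.3 CPM in the Ctrl libraries and at 97.2, 86.6 and 87.1 CPM in the BPA libraries. The lowest BPA library was above the highest Ctrl library, and the log2 fold change was 0.50 (SE 0.09). Shc3, an adaptor of receptor tyrosine kinases in neurons, stood at 9.62, 11.3 and 10.7 CPM against 16.6, 15.3 and 14.5 CPM (0.56, SE 0.12). Efr3a, which anchors a phosphatidylinositol kinase at the plasma membrane, stood at 86.5, 68.7 and 85.3 CPM against 106, 102 and 108 CPM (0.39, SE 0.10). These genes were chosen among DEGs without overlap between the groups, so their separation was fixed in advance. All of Pde10a, Shc3 and Efr3a passed the threshold in each of the 6 fits without 1 mouse. Pde10a is best known from striatum, where it is abundant. The striatal projection neuron list held 0 DEGs among 18 other genes, of which 6 had a positive log2 fold change (median -0.11, from -0.56 to 0.44).

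Cdh6, a classical cadherin of cell adhesion, was more uneven. It stood at 26.7, 24.8 and 25.4 CPM in Ctrl and at 37.7, 44.3 and 28.9 CPM in BPA, so that BPA replicate 3 lay only slightly above the Ctrl mice (0.53, SE 0.14). Nell1, a secreted protein with EGF-like repeats, stood at 37.9, 34.7 and 39.6 CPM against 45.7, 54.2 and 44.7 CPM (0.37, SE 0.10). Hs6st3, which sulfates heparan sulfate chains, stood at 5.01, 3.58 and 4.93 CPM against 6.86, 9.09 and 6.29 CPM (0.72, SE 0.20). The groups were apart in both cases, as the choice of genes required.

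Among DNA-binding proteins, Klf7 (ENSMUSG00000025959, chr1:64029447-64122282), a Kruppel-like factor known for axon growth, rose. It stood at 15.9, 15.5 and 17.9 CPM in Ctrl and at 23.2, 23.4 and 22.2 CPM in BPA (0.48, SE 0.10). Satb1, a chromatin organizer, stood at 86, 71.2 and 69.5 CPM against 89.2, 103 and 102 CPM (0.38, SE 0.11), with BPA replicate 1 close to the highest Ctrl mouse. Fbxo47, an F-box protein gene, and Gm5620, a processed pseudogene, completed the 10 upregulated genes with the smallest p, both at 1.5 CPM or less, and reads of a pseudogene may stem from its parent gene.

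The downregulated genes were led by Ddit4 and Mycl. Ddit4 (ENSMUSG00000020108, chr10:59949669-59951834), a stress-induced inhibitor of mTORC1, stood at 45.4, 38.4 and 48.9 CPM in Ctrl and at 29.8, 30.0 and 32.5 CPM in BPA (-0.52, SE 0.11). Mycl (ENSMUSG00000028654, chr4:122995652-123002485), a MYC family transcription factor, stood at 14.4, 16.2 and 15.4 CPM against 10.9, 12.1 and 10.6 CPM (-0.45, SE 0.11). In both, every BPA mouse was below every Ctrl mouse, as the choice of genes required, and the threshold was passed in all 6 fits without 1 mouse.

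Capn11, a calpain protease, had the largest change of the downregulated genes at 1 CPM or more. It stood at 4.02, 4.50 and 3.14 CPM in Ctrl and at 0.514, 2.30 and 0.231 CPM in BPA (-1.94, SE 0.59), and BPA replicate 2 was nearer to the Ctrl mice than to the other two BPA mice. Without BPA replicate 2 the value was -3.36. Limd2, a LIM domain protein gene, was among the more abundant, at 114, 114 and 103 CPM against 94.4, 94.1 and 85.3 CPM (-0.27, SE 0.08). Gng5, a G protein gamma subunit, stood at 5.48, 5.31 and 6.22 CPM against 4.06, 3.54 and 4.33 CPM (-0.51, SE 0.15). None of them overlapped between the groups, as the choice of genes required. The other genes of this set were Rpl11 and Rps19bp1 (-0.29 and -0.34), which belong to the ribosome or bind one of its proteins, the membrane protein gene Tmem256 (-0.30), the beta-globin Hbb-bs (-0.58) and the antisense transcript AC090479.2 (-0.87).

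**Figure D3:**
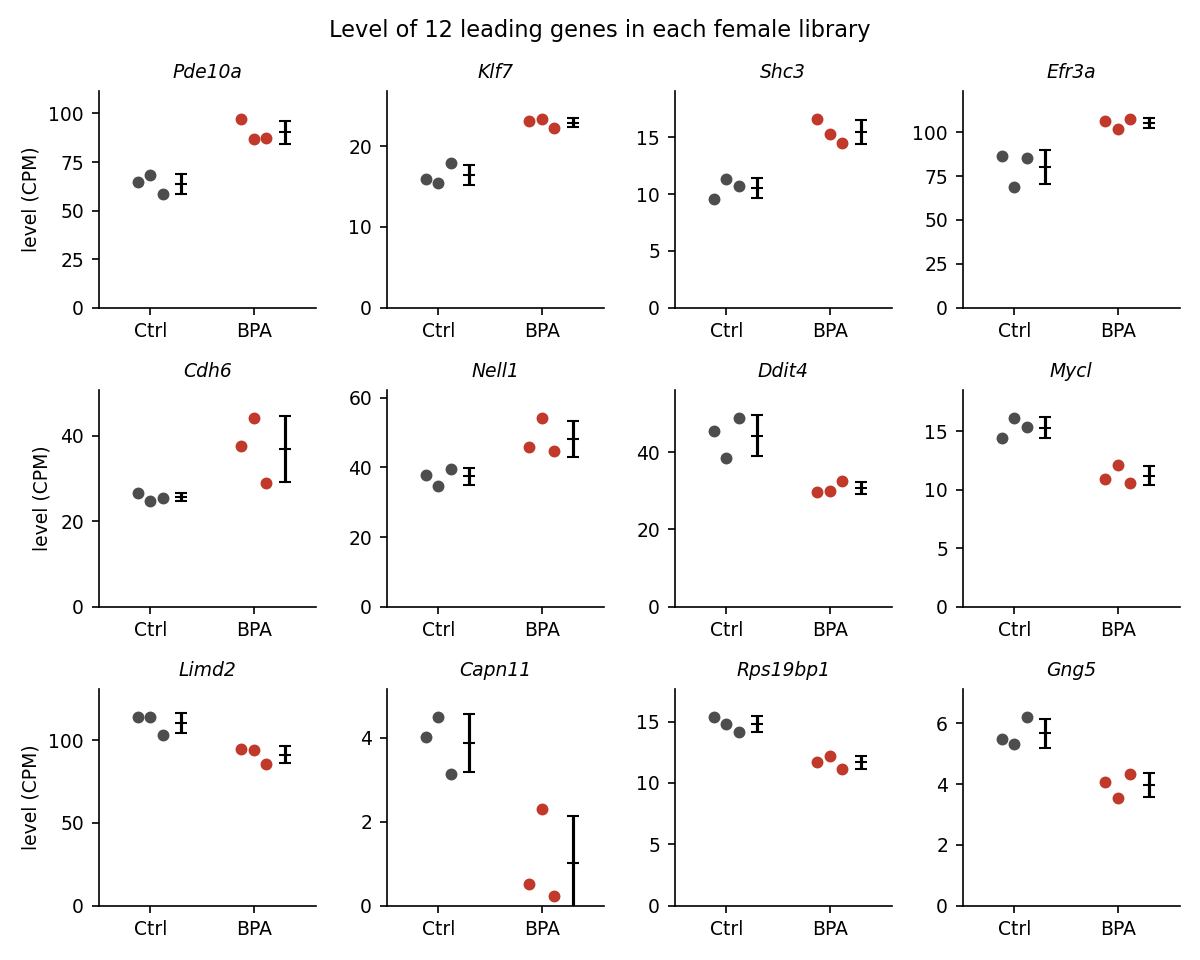
Level (CPM, y axes starting at 0) of 12 of the named DEGs in each Ctrl (grey) and BPA (red) female, 1 point per mouse, with the mean and SD of 3 mice beside the points. The genes were chosen among DEGs without overlap, so the groups are apart in every panel. BPA replicate 3 lies close to the Ctrl mice for Cdh6, and 1 BPA mouse stands apart from the other BPA mice for Capn11.

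Of the most abundant DEGs, 5 upregulated and 4 downregulated genes are given. Sorl1, a sorting receptor that handles the amyloid precursor protein, stood at 394, 379 and 406 CPM in Ctrl and at 440, 444 and 508 CPM in BPA (0.24, SE 0.09). Homer1, a scaffold of glutamate receptors, stood at 220, 189 and 221 CPM against 260, 272 and 230 CPM (0.28, SE 0.10), and the zinc finger gene Hivep2 at 269, 235 and 316 CPM against 367, 340 and 311 CPM (0.31, SE 0.12). Hivep2 overlapped, since Ctrl replicate 3 exceeded BPA replicate 3. Prepl and Lpgat1 rose by 0.26 each. On the lower side, the zinc-binding metallothionein Mt3 stood at 158, 162 and 137 CPM against 126, 126 and 131 CPM (-0.25, SE 0.09). Rogdi (-0.27), Limd2 and the glucosidase subunit gene Prkcsh (-0.18) were further genes of this kind, and Rogdi overlapped, since Ctrl replicate 3 (98.8 CPM) was below BPA replicate 3 (101 CPM). Sorl1, Homer1, Hivep2, Prepl and Lpgat1 passed in 2 or 3 of the 6 fits without 1 mouse, Mt3 in 4, and Rogdi and Prkcsh in 1.

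Larger changes at 1 CPM or more were found for low genes. Pcdha11, a clustered protocadherin, stood at 1.28, 1.79 and 2.41 CPM against 3.83, 3.72 and 2.42 CPM (0.86, SE 0.28), and Clec5a, a myeloid lectin receptor, at 0.991, 0.923 and 1.18 CPM against 1.83, 1.53 and 2.02 CPM (0.80, SE 0.23). The alpha protocadherins share their last exons, so that reads there cannot be given to 1 member. Gm49493, Gm32699 and Gm5499, which have no assigned function, rose by 0.89, 0.88 and 0.81. Downregulated genes of this kind were Ang, a secreted ribonuclease, at 1.75, 2.14 and 1.29 CPM against 1.09, 0.767 and 0.981 CPM (-0.86, SE 0.28), the pseudogene Gm13743 (-0.80, -0.49 without BPA replicate 1, and -0.48 without Ctrl replicate 3 as well) and Gm47283. Gm47283, annotated at chrY:90784738-90816464, was read in all 6 females, at 3.61, 2.83 and 2.02 CPM against 0.80, 1.89 and 1.38 CPM (-1.05, SE 0.33).

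The leading regulators are shown with the sequence around their start sites, since Klf7 rose while Ddit4 and Mycl fell. Each sequence runs 5′ to 3′ on the gene's strand from 250 bases before to 50 bases after a RefSeq start (GRCm38.p6), and capitals mark matches to a GC box (GGGCGG) or TATA box (TATAAA) on either strand. The windows are chr1:64121340-64121639 (minus strand), chr10:59951721-59952020 (minus strand) and chr4:122995681-122995980 (plus strand).
Klf7: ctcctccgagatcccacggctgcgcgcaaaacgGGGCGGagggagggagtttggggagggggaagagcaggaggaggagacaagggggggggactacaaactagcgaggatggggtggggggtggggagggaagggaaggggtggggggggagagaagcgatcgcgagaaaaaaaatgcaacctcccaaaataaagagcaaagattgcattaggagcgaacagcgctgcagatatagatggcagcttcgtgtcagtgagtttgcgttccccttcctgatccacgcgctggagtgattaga
Ddit4: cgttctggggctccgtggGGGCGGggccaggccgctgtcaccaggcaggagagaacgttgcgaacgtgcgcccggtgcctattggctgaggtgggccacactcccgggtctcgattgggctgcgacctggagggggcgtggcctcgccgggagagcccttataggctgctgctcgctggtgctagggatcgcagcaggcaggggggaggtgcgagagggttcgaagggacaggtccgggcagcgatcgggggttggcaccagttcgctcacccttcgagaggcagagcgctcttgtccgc
Mycl: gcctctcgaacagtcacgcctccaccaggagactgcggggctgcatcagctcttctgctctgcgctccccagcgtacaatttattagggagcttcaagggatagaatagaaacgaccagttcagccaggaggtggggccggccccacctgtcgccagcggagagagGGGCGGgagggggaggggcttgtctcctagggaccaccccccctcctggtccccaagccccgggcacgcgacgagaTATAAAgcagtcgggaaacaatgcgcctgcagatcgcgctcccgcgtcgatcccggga

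Each of the 3 windows held 1 GC box, and that of Mycl also held 1 TATA box. Over all tested genes, 10783 had a RefSeq start within 1000 bases of the annotated start. A GC box was found in 64.1% of these windows, in 69.5% of the 105 windows of upregulated DEGs and in 59.8% of the 112 of downregulated DEGs. A TATA box was found in 7.11%, 10.5% and 9.82%, an E-box (CACGTG) in 10.1%, 10.5% and 8.04%, and a cAMP response element (CRE, TGACGTCA) in 3.23%, 2.86% and 2.68%. The full estrogen response element (GGTCANNNTGACC) was found in 0 windows, and its half-site (GGTCA) in 36.9%, 35.2% and 35.7%. All motifs were searched on both strands. These shares describe letters in a short window and were not tested.

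The hormone receptor genes did not pass the test in females. Esr1, the estrogen receptor alpha gene, stood at 10.2, 11.9 and 15.3 CPM in Ctrl and at 6.75, 8.38 and 17 CPM in BPA, with wide overlap (-0.22, SE 0.32), and its value was 0.21 without Ctrl replicate 3 and BPA replicate 1. Esr2 had at most 7 reads in a library and was not tested. The estrogen-related receptor genes gave values of -0.01 for Esrra and 0.29 for Esrrg, and the membrane estrogen receptor Gper1 gave -0.23 (-0.09 without those mice). The thyroid hormone receptors Thra and Thrb gave -0.13 and 0.17. Esrrg stood at 17.7, 16.6 and 21.2 CPM against 28.1, 20.7 and 19 CPM and passed the threshold with the bulb covariate (0.34). Of the estrogen signalling list, 0 of 16 genes were DEGs (median 0.04), and of the other nuclear receptors 0 of 26 (median 0.07).

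No enzyme listed for DNA methylation or histone methylation passed the test. Dnmt1, the maintenance methyltransferase, stood at 61.2, 63.6 and 79.5 CPM against 76.1, 65.9 and 63.3 CPM (0.01, SE 0.12), and the de novo enzyme Dnmt3a at 117, 120 and 160 CPM against 167, 131 and 120 CPM (0.07, SE 0.16, and 0.14 with the bulb covariate). In both genes the 2 libraries rich in bulb transcripts were the highest. The same was seen for the H3K27 demethylase Kdm6b, at 15.7, 17.9 and 41.5 CPM against 35.8, 16.2 and 18.4 CPM. No DEG occurred among 22 genes of DNA methylation, 25 of H3K27 methylation, 20 of H3K9 methylation and 44 of histone acetylation and remodelling (0 in each), with medians of 0.03, -0.02, -0.01 and 0.03. Dnmt3b, a further de novo enzyme, had 12, 14 and 24 reads in Ctrl against 26, 14 and 26 in BPA (0.41, SE 0.35). The H3K27 methyltransferase Ezh2 stood at 5.71, 5.25 and 9.97 CPM against 7.55, 4.13 and 5.89 CPM (-0.25, SE 0.30, and -0.12 without Ctrl replicate 3 and BPA replicate 1). Ogt, which attaches GlcNAc to nuclear proteins, gave 0.05.

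Besides the olfactory bulb list, 62 gene lists were described by the number of DEGs among their tested members and by their median log2 fold change, beside 1.11% upregulated, 0.975% downregulated and a median of -0.0018 over all genes. The lists held 1526 tested genes, of which 28 (1.83%) were upregulated and 13 (0.852%) downregulated. No DEG was found in 35 lists, 1 in 16 lists and 2 or more in 11 lists. The medians lay between -0.11 and 0.30, and 58 of the 62 were within 0.1 of 0.

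The Kruppel-like and basic helix-loop-helix factors held the most DEGs, 2 upregulated and 3 downregulated of 35, and their median was -0.01. Besides Klf7 and Mycl, Klf16 fell from 68.5, 81.3 and 68.2 CPM to 57.3, 65.6 and 56.3 CPM (-0.28). Klf2, known from endothelium and lymphocytes, fell from 11.4, 11.8 and 13.5 CPM to 7.09, 10.6 and 10 CPM (-0.41). Klf12 rose from 6.41, 6.18 and 7.84 CPM to 9.20, 7.73 and 9.46 CPM (0.37), with 1 BPA library just under the highest Ctrl library. Without Ctrl replicate 3 and BPA replicate 1, Klf2 gave -0.17 and did not pass, nor did it without BPA replicate 1 alone (-0.25). The members thus changed in both directions, and Klf2, Klf12 and Klf16 each lost the threshold in at least 3 of the 6 fits without 1 mouse.

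The myelin and oligodendrocyte list had the highest median of all, 0.30, although only Mag of its 20 genes was a DEG. Mag, a glycoprotein of the inner myelin layer, stood at 27.9, 35.1 and 43.6 CPM in Ctrl and at 51.8, 39.2 and 59.3 CPM in BPA (0.49, SE 0.19). All 20 members had a positive log2 fold change, between 0.10 for the lineage factor Sox10 and 0.49, compared with 8424 of the 17022 genes tested (49.5%). Of the 20, 16 kept a positive value in every fit without 1 mouse, the exceptions being Mobp, Trf, Sox10 and Ugt8a, and 19 were positive without Ctrl replicate 3 and BPA replicate 1, where Sox10 gave -0.10. Mbp, the basic protein that compacts myelin, stood at 386, 432 and 666 CPM against 726, 453 and 616 CPM (0.27, SE 0.23). For every member the groups overlapped.

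The members moved together from mouse to mouse, so the 20 values are not independent of each other. Relative to each gene's mean, the median of the list was -0.38, -0.28 and 0.20 in Ctrl replicates 1 to 3 and 0.29, -0.15 and 0.30 in BPA replicates 1 to 3. Of the libraries rich in bulb transcripts, Ctrl replicate 3 was the highest Ctrl mouse and BPA replicate 1 among the 2 highest BPA mice. With the bulb covariate, 11 of the 20 genes passed as upregulated (median 0.36), where 2.21% of all genes did, among them Mbp (0.39) and Mog (0.39). Without Ctrl replicate 3 and BPA replicate 1, the median was 0.46, and across the fits without 1 mouse the lowest was 0.15, with Ctrl replicate 1 left out, and the highest 0.52, with Ctrl replicate 3 left out. Other cell type markers also differed between libraries. The layer 5 neuron list, with 11 of 12 genes positive, had medians of -0.04, -0.16 and 0.01 in Ctrl mice and 0.25, -0.19 and 0.14 in BPA mice, lowest and highest in BPA replicates 2 and 1. Gfap, a filament of astrocytes, stood at 32.5, 44.8 and 315 CPM in Ctrl and at 61.7, 30.2 and 223 CPM in BPA, highest in Ctrl replicate 3 and BPA replicate 3. The part of these differences in the myelin values was not tested. The white matter content of the pieces of tissue was not measured, and its part in the result was not tested. The oligodendrocyte precursor list had no DEG (0 of 12, median 0.01).

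**Figure D4:**
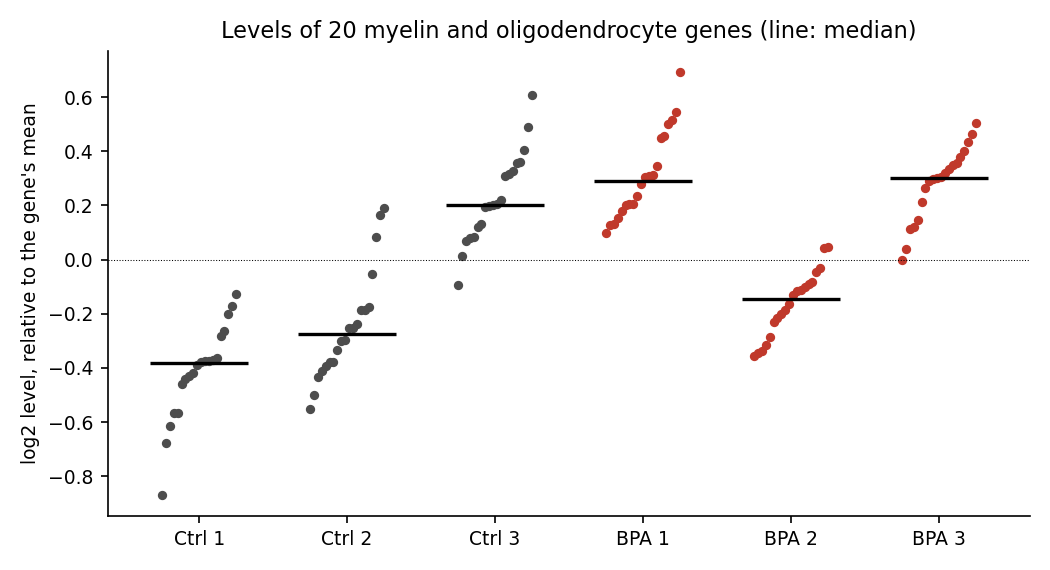
Log2 level of 20 myelin and oligodendrocyte genes relative to each gene's mean over the 6 females (y axis), 1 point per gene in each library (x axis), with the median as a line. Medians are -0.38, -0.28 and 0.20 in Ctrl mice and 0.29, -0.15 and 0.30 in BPA mice, and the points of a library shift together.

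Among the other cell types, single genes passed. Sox9, a factor of the astrocyte lineage, rose from 11.8, 15.2 and 15.2 CPM to 16.4, 20.8 and 22.3 CPM (0.49, SE 0.15), while the astrocyte list as a whole had a median of -0.03 with 1 DEG of 20. In layer 6 neurons, Hs3st4 rose (0.47) and Rprm, a cell cycle inhibitor, fell (-0.33), as 1 DEG in each direction of 11 genes. The median of that list was 0.11 and ran from -0.115 to 0.37 as single mice were left out. The adhesion gene Nectin3 of the upper layers rose (0.23), and the neuropeptide gene Tac2 of interneurons fell from 11.4, 14 and 9.86 CPM to 8.17, 9.56 and 9.17 CPM (-0.39, and -0.24 without Ctrl replicate 2, where it did not pass). No DEG was found among layer 5 neurons (0 of 12, median 0.11), microglia and macrophages (0 of 20, median -0.04), endothelial cells (0 of 18, median -0.02), pericytes (0 of 13), meninges (0 of 13) or striatal neurons (0 of 18, median -0.11). The list of hippocampal and olfactory neurons held 0 of 10, that of thalamus 0 of 9 and that of choroid plexus 0 of 3.

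Of the signalling lists, those on second messengers, kinases, growth factors and morphogens held 1 or 2 DEGs each. Cyclic nucleotide signalling had 2 upregulated genes of 41 (median 0.05), Pde10a and Pde5a, which degrades cGMP and stood at 11.8, 12.3 and 9.86 CPM against 15.9, 15.5 and 11.9 CPM (0.35). Pde5a gave 0.19 without Ctrl replicate 3 and BPA replicate 1. Phosphoinositide and calcium signalling had 2 of 42 (median 0.07), Efr3a and the calcium release channel gene Itpr2 (0.25). RAS-MAPK signalling had Shc3 alone of 37 (median 0.05). Among growth factors and receptor kinases, Hgf was the DEG of 34 (median 0.07) and rose from 5.71, 4.27 and 5.32 CPM to 6.97, 7.61 and 7.5 CPM (0.53, SE 0.15). Wnt, Notch and BMP signalling had 1 gene in each direction of 45, the inhibitor gene Smad6 (0.69) and the repressor gene Tcf7l1 (-0.50).

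Membrane and adhesion lists gave similar counts. Cadherins and protocadherins had 2 upregulated genes of 35 (median 0.10), Cdh6 and Pcdh9 (0.26, and 0.15 without BPA replicate 2, where it did not pass). Potassium channels had 2 of 48 (median 0.06). Kcna1, a channel of axons, stood at 23.3, 18.4 and 29.8 CPM against 36.6, 43.7 and 29.0 CPM (0.61, SE 0.20) and its partner subunit gene Kcnab1 gave 0.25 (0.16 without Ctrl replicate 3, where it did not pass), and Kcna1 overlapped in 1 pair of mice. Monoamine and neuropeptide receptors had 1 of 46, the orexin receptor gene Hcrtr2 (0.69, and 0.38 without Ctrl replicate 3 and BPA replicate 1). Extracellular matrix had 0 of 42, and tubulins and motors had Kif5b (0.24, and 0.16 without Ctrl replicate 2, where it did not pass) of 43.

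Stress genes changed in both directions. The integrated stress response list had 2 downregulated genes of 18 (median -0.07) and 3 members above 0. They were Ddit4 and Nupr1, a stress-induced nuclear protein that stood at 9.32, 12.4 and 16 CPM against 5.95, 7.85 and 9.87 CPM (-0.67, SE 0.24) and overlapped, since Ctrl replicate 1 was under BPA replicate 3. Without Ctrl replicate 3 and BPA replicate 1, Nupr1 gave -0.29 and did not pass. The list's central factor Atf4 gave -0.05. Of the unfolded protein response, the kinase gene Eif2ak3 rose (0.20) as 1 of 24, and of the heat shock chaperones Hspa4l (0.19) as 1 of 23. Hypoxia and mTOR signalling had 0 of 24, and antioxidant and glutathione genes had 0 of 27. Mt3 and the transferrin receptor gene Tfrc changed in opposite directions (-0.25 and 0.29) among 20 genes of metal binding, and the glutathione transferase gene Gstm1 fell (-0.29, and -0.17 without Ctrl replicate 2, where it did not pass) among 19 of xenobiotic metabolism (median -0.08).

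Metabolism and protein turnover held few DEGs. Glycolysis (0 of 16), the TCA cycle (0 of 19), cholesterol synthesis (0 of 26), fatty acid metabolism (0 of 28), mitochondrial import and fusion (0 of 28) and the 13 mRNAs of the mitochondrial genome (0 of 13) had medians between -0.05 and 0.01. Aprt, which salvages adenine, fell (-0.36) as 1 of 23 genes of creatine, purine and NAD metabolism. The proteasome had 0 of 31 with a median of -0.07, and the mitochondrial ribosome had Mrpl36 (-0.27) of 49 with a median of -0.08. The ubiquitin system had Cul4b (0.25, and 0.16 without BPA replicate 1, where it did not pass) of 34. No DEG was found among lysosome and autophagy genes (0 of 40), splicing factors (0 of 40), translation factors (0 of 33) or tRNA synthetases (0 of 20).

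The remaining lists held between 0 and 2 DEGs each. Genome folding had 2 upregulated genes of 17 (median 0.07), Satb1 and the cohesin regulator gene Pds5a (0.18). Interferon and antigen presentation had Usp18 (0.59) and Ifi35 (-0.57) of 33, both interferon-induced and changed in opposite directions. Homer1 was the single DEG of 20 immediate early genes (median 0.00), a list whose median ran from -0.17 to 0.33 as single mice were left out. The circadian clock (0 of 18), thyroid hormone targets (0 of 11), cytokines (0 of 25), the cell cycle (0 of 25, median -0.09) and imprinted genes (0 of 38, median 0.03) had none. Of 14 genes of X chromosome dosage, Usp9x, a deubiquitinase, rose (0.22).

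**Figure D5:**
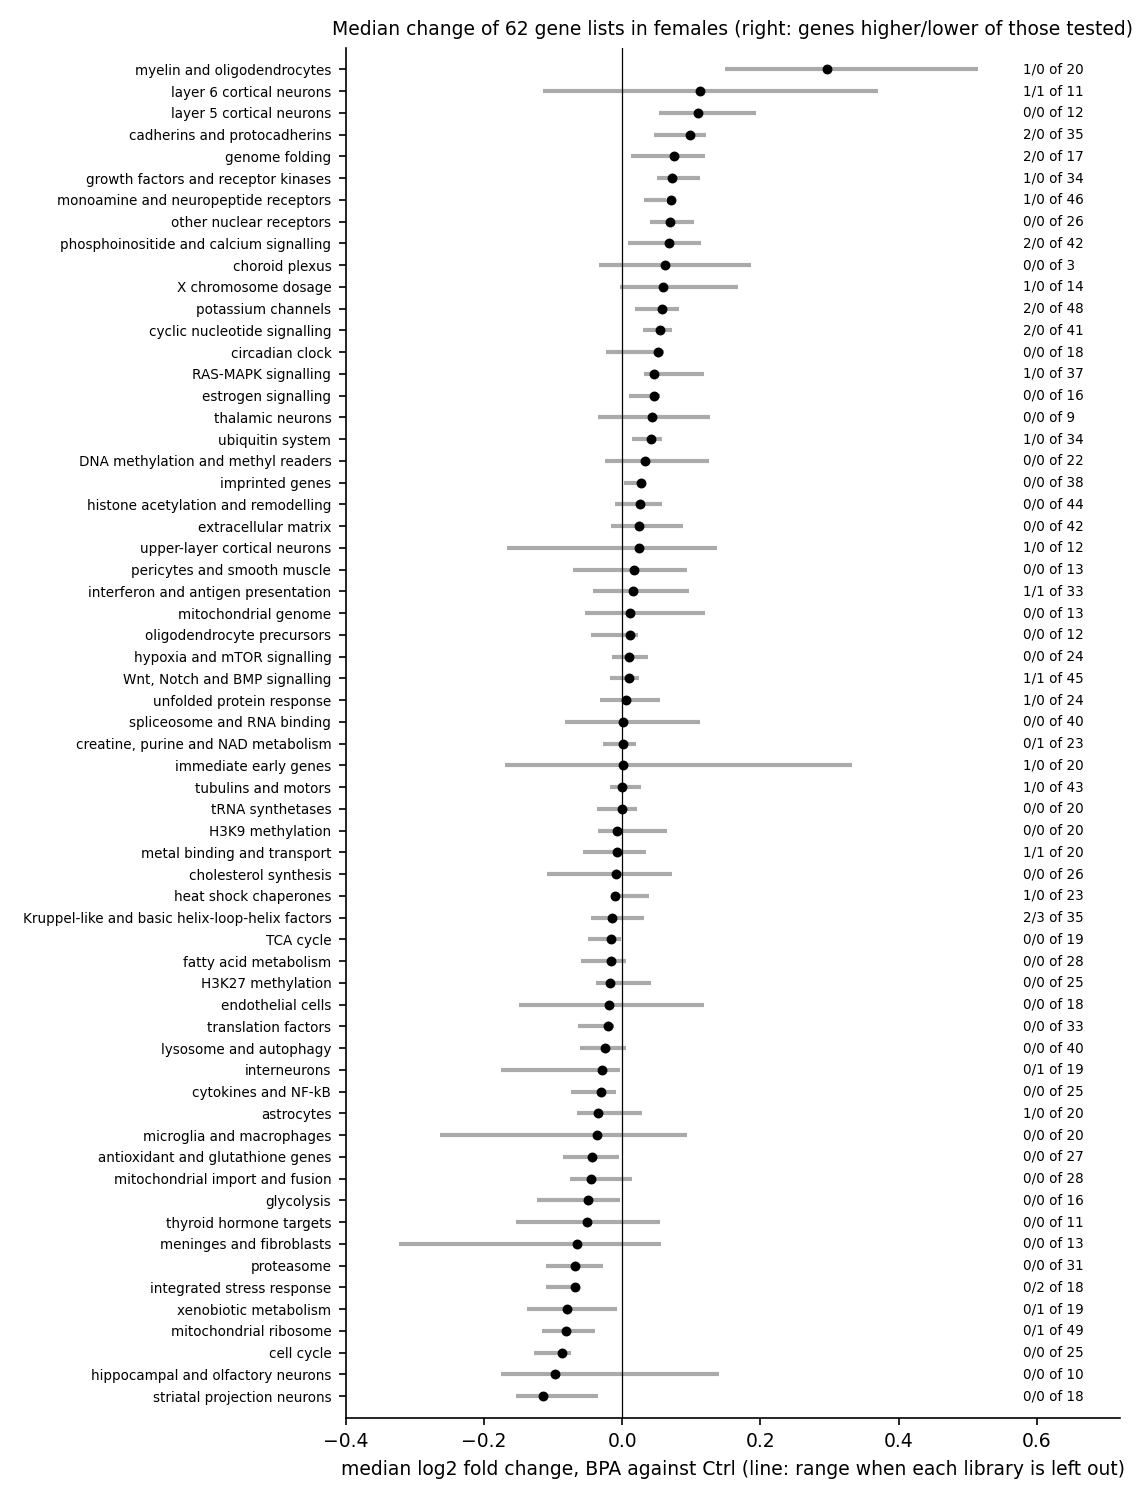
Median log2 fold change of BPA against Ctrl females (x axis) for each of 62 gene lists (y axis). Points are the medians with all 6 mice, lines span the medians as each mouse is left out, and the numbers at the right count upregulated and downregulated DEGs among the genes tested. The myelin list stands at 0.30, and 58 lists lie within 0.1 of 0.

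DEGs were spread over gene types and chromosomes. Of 14222 protein-coding genes, 150 were upregulated (1.05%) and 139 downregulated (0.977%), and of 751 processed pseudogenes 8 and 8. Among 367 transcripts of the annotation class that awaits experimental evidence (TEC), 13 were upregulated (3.54%, against 1.11% of all genes) and 0 downregulated. Chromosomes ranged from 0.933% DEGs (chromosome 19) to 3.04% (chromosome 18), leaving out the sex chromosome Y and the mitochondrial genome. Exonic length went with direction. In the shortest of 4 equal groups of genes (up to 2352 bases), 32 were upregulated and 86 downregulated, and in the longest (6349 bases or more) 82 and 10. The median level of the longest group, relative to each gene's mean, was between -0.07 and 0.01 in the Ctrl mice and between -0.000795 and 0.04 in the BPA mice, and Ctrl replicate 2 was the lowest. With a length offset the DEGs were 164 upregulated and 127 downregulated.

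Whether the daughters' response differed from that of the sons was tested as an interaction in 1 fit of all 12 libraries. The interaction passed the unadjusted threshold for 317 of 17399 genes (1.82%) and the adjusted threshold for 0 (edgeR, smallest value 1.00), while DESeq2 gave 202 at the unadjusted threshold. Of the 355 female DEGs, 43 were among the 317, a share that the choice of DEGs by their female response raises. Among the 326 of them that were tested in sons alone, 55 passed the unadjusted threshold there. Of these, 26 were upregulated in both sexes and 28 downregulated in both. The share of all genes that passed in sons is not given here, so these counts are not read as a shared response. Ddit4 and Mycl had values of opposite sign in the sexes. In sons, Ddit4 gave 0.28 (SE 0.15) and Mycl 0.26 (SE 0.19), neither past the threshold, and the interaction passed the unadjusted threshold for both. So it did for Pde10a, which gave 0.06 in sons (SE 0.15). Shc3 gave 0.62 in sons against 0.56 in daughters and Klf7 0.30 against 0.48, and their interactions did not pass. Of the 62 lists, 4 had an absolute median of 0.1 or more in daughters. In sons, the myelin list had a median of 0.35, the layer 6 neuron list 0.38 and the layer 5 neuron list 0.23. The striatal projection neuron list, at -0.11 in daughters, gave 0.008 in sons, where the median over all genes was -0.0046.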

How the data were processed

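Prefrontal cortex mRNA was captured with oligo(dT) and sequenced as single-end reads. The authors used Trim Galore for trimming, HISAT2 for alignment to mm10, and counted reads on exons with featureCounts (version 1.6.3 in the processing notes, 2.0.3 in the headers of the females' counts) on GENCODE vM20, without strand. They deposited raw counts for 54752 genes per mouse, of which 54723 were named here from GENCODE vM21. No batch is given.

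From these counts, BPA and Ctrl females were compared with edgeR 4.0.16 (R 4.3.3) by its quasi-likelihood test after filterByExpr (minimum count 10) and TMM scaling. The threshold was an unadjusted p under 0.05, with Benjamini-Hochberg values beside it. The biological coefficient of variation was 0.146. Pairs of libraries of a group differed beyond counting error (chi-square per degree of freedom of 6.90 to 19.2), so each was 1 replicate. p-values measure the spread between these mice. CPM follow TMM scaling within females, except in the bulb sums (all 12 libraries) and marker levels (total counts). Relative levels are log2(CPM + 0.5).

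Named genes were, per direction, the 10 smallest p and the 5 largest changes (mean of 1 CPM or more) among DEGs without overlap, the 5 most abundant DEGs, all DEGs of the lists or examples, and the hormone receptors and chromatin enzymes. The members and lists were chosen with earlier results of these data known. Alternatives were DESeq2 1.42.0, its size factors, library size alone, other filters, all 12 libraries, a replicate block, a length offset (loess, span 0.5), p under 0.01 and each mouse left out. The bulb covariate and the fit without 2 mice were added after seeing the data. The procedure was tested on simulated counts. Some genes that the rule names are not reported here.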

Additional observations from a re-analysis of the deposited data

Results flagged for a closer look

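Of the genes named by their p, size or level, 7 had a response in daughters that differed from that in sons at the unadjusted threshold of the interaction, and 0 at the adjusted one (edgeR, all 12 libraries). The values are the female minus the male log2 fold change. It was 0.44 for Pde10a, 0.84 for Gm32699, 1.32 for Pcdha11, 1.02 for Gm5499 and 0.926 for Clec5a. It was -0.804 for Ddit4 and -0.712 for Mycl. These genes were chosen by their female response, which raises the difference.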

How the results depend on the processing

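None of the 68 named DEGs changed direction in any of the 17 refits that tested it (64 were tested with at least 10 counts in every library), and 18 passed the threshold throughout. The named DEGs were chosen by their p in the same mice, which by itself favours a kept direction. The counts moved more. For all, upregulated and downregulated DEGs (355, 189 and 166), they were 23, 17 and 6 at p under 0.01, 172, 117 and 55 with DESeq2, and 641, 371 and 270 without a filter. With the bulb covariate they were 734, 377 and 357, and without both Ctrl replicate 3 and BPA replicate 1 they were 577, 311 and 266. Leaving out 1 mouse gave 191 to 583, 106 to 278 and 85 to 305 genes, with 191 without Ctrl replicate 2, 583 without Ctrl replicate 3 and 534 without BPA replicate 1. The interaction count of 317 was 202 with DESeq2, 680 without a filter and 273 to 526 as each of the 12 mice was left out, with 494 without male BPA replicate 1 and 526 without female BPA replicate 1. With the replicate number as a replicate block, the DEGs were 200, 111 and 89, and with the length offset added 167, 96 and 71. Same-numbered mice did not vary together (correlations of their deviations of -0.57, 0.08 and -0.27). The correlation was 0.60 between Ctrl replicate 3 and BPA replicate 1, the libraries rich in bulb transcripts. With that axis in the deviations, the correlations cannot tell whether same-numbered mice shared a batch or handling. The cause of these shifts was not tested. Of 1054 list medians under these settings, 41 moved by more than the spread between mice.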

Other observations

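Gene families that no list covered were described after their values were seen, and without a test. Over all genes tested, 1.11% were upregulated and 0.975% downregulated. Of 11 clustered protocadherin genes of the alpha cluster, 3 were DEGs, all upregulated (Pcdha11, Pcdha6 and Pcdhac2), and the median log2 fold change was 0.25. By library, the alpha median was -0.09, -0.22 and -0.01 in Ctrl mice and 0.25, 0.12 and -0.07 in BPA mice, with BPA replicate 3 within the Ctrl range. Of the gamma cluster, 20 of 21 genes had a positive value (median 0.18), and Pcdhga5 (0.43) and Pcdhga8 (0.30) were DEGs. The beta cluster had 0 DEGs of 21 and a median of 0.06. The clusters lie next to each other, and members of the alpha and gamma clusters share their last exons. By library, the gamma median was -0.07, -0.12 and 0.01 in Ctrl mice and 0.06, 0.27 and -0.10 in BPA mice, so that BPA replicate 3 was within the Ctrl range.

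Of 28 enzymes of heparan sulfate synthesis, 5 were DEGs, all upregulated: Hs6st3 (0.72), Hs3st4 (0.47), the chain polymerase gene Ext1 (0.23), Ndst1 (0.24) and Xylt1 (0.18). Their family's median was 0.03 with 18 of 28 positive, and 0.01 with 15 positive under the length offset. Slit2 (0.27) and Slit3 (0.34), axon guidance proteins that bind heparan sulfate, were upregulated among 10 genes of that pathway, all of them positive (9 of 10 when libraries were scaled by their totals and 8 of 10 with the length offset, which took the median from 0.07 to 0.04). Among T cell receptor signalling genes, 3 of 12 were downregulated, Skap1 (-1.03), Lck (-0.58) and Zap70 (-0.61), all at 3.06 CPM or less in every library.

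The axonal filament gene Nefm stood at 134, 104 and 96.7 CPM in Ctrl and at 153, 168 and 137 CPM in BPA (0.45). Nefl, whose annotated interval lies within that of Nefm, gave 0.14. All 4 neurofilament genes had a positive value (median 0.20), and Nefm and Nefh were the DEGs among them, both upregulated. Of 82 cytosolic ribosomal protein genes, 80 had a negative value (median -0.15, and -0.12 with the length offset) and 12 were downregulated DEGs. By library, the median was -0.01, 0.19 and 0.04 in Ctrl mice and -0.03, -0.15 and -0.03 in BPA mice, so that Ctrl replicate 2 stood highest and Ctrl replicate 1 was close to BPA replicates 1 and 3. The shortest of 4 equal length groups had a median of -0.06 over all its genes.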
